A study of Mus musculus with 26 samples.

Results

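The mature mouse oocyte, arrested at metaphase of the second meiotic division (MII), was compared between females whose oocytes lacked the histone demethylases KDM3A and KDM3B and control females. RNA was measured in 2 libraries of mDKO oocytes and 2 of control oocytes. mDKO oocytes came from Zp3-Cre females with conditional (f/f) alleles of both Kdm3a and Kdm3b. The Zp3 promoter is active in growing oocytes, so the deletion is made there and not in the rest of the ovary. The genotype of the other group is labelled only as control. All animals were C57BL/6J. Neither their age nor the exons removed from each gene could be taken from the labels. The genes described are the 10765 of 24412 listed genes that reached a TPM (transcript share of the library total, corrected for transcript length) of at least 1 in at least 2 of these 4 libraries. The whole series holds 26 libraries of oocytes and embryos. Of the embryos, the early 2-cell (E2C) and late 2-cell (L2C) mDKO embryos, made from mDKO eggs and wild-type sperm, and their controls are used at the end, as are mDKO and control E2C embryos injected with mCherry, a fluorescent protein.

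KDM3A and KDM3B remove methyl groups from mono- and dimethylated lysine 9 of histone H3, a mark of silent chromatin, and JMJD1C is their relative. A growing oocyte transcribes and stores messenger RNA, then falls silent before ovulation, so MII RNA is a stock laid down earlier and shaped by translation-linked changes of the poly(A) tail and by decay. Because the libraries were made from polyA RNA, a change of tail length and a change of RNA amount cannot be told apart in these values. TPM is a share of a fixed total, so the RNA content per oocyte was not measured, and fewer cells of a type and less RNA per cell cannot be told apart. Each library pooled 12 to 20 cells. Separate matings or days for the pools of a group are not stated, and the spread behind the p-values may thus be technical.

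The 4 libraries held between 10243 and 10573 genes at or above 1 TPM. Across genes, log2(TPM + 1) correlated at 0.988 between the mDKO libraries and 0.983 between the control libraries, and at 0.963 to 0.973 between groups. The libraries carried the RNA of oocytes: all 11 oocyte markers were above 1 TPM in every library, with sums of 40729 and 40602 TPM in mDKO and 35680 and 33216 TPM in control oocytes. Cumulus and granulosa markers, from the somatic cells that surround the oocyte, were low, with 7 of 13 at 1 TPM or more in every library and Lhcgr under 0.1 TPM. They summed to 120.05 and 198 TPM in mDKO oocytes and 91.8 and 167 TPM in control oocytes, so replicate 2 was the higher one in both groups. Blood markers reached 1 TPM in all 4 libraries for 0 of 9 genes, with Hba-a1, Hbb-bs and Ptprc under 0.1 TPM, and sperm markers for 1 of 7, with Prm1, Tnp1, Tnp2, Akap4 and Izumo1 under 0.1 TPM. Blood markers summed to 9.87 and 16.8 TPM in mDKO and 13.5 and 15.2 TPM in control oocytes, and sperm markers to 3.78 and 2.42 TPM and to 4.89 and 3.68 TPM in mDKO and control oocytes. No marker of these lists was called.

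More genes were called lower than higher in mDKO oocytes. Of 10765 genes, 458 (4.25%) were called at an adjusted p under 0.05 with limma and Benjamini-Hochberg adjustment. They were 91 higher (0.845%) and 367 lower (3.41%) genes in mDKO oocytes, of which 47 and 220 changed by at least 2-fold and 4 and 18 by at least 8-fold on the log2(TPM + 1) scale. The median log2 fold change of mDKO over control was 1.03 for the higher, -1.13 for the lower and -0.05 for all genes. Lower genes made up 2.28% and 2.36% of the TPM in mDKO oocytes and 3.89% and 3.95% in control oocytes. Higher genes made up 2.08% and 1.96% in mDKO and 1.15% and 1.10% in control oocytes.

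These counts hang on all 4 libraries. Only 38 genes were called without mDKO replicate 1 (7 higher and 31 lower) and 102 without mDKO replicate 2 (24 and 78). Without control replicate 1 the count was 18 (5 and 13) and without control replicate 2 it was 12 (5 and 7). A set of 10 genes passed in every one of these fits, and 96 passed in at least 1. When the TPM filter was also applied again to the 3 remaining libraries, which was added after seeing the data, 300 genes were called without control replicate 1, of which 155 were higher and 145 lower, so that lower genes were no longer the majority. With size-factor scaling, 112 genes were higher and 257 lower, so the higher share of calls was 30.4% against 19.9% without it, and the median of all genes moved to 0.03. Without regard to a test, both mDKO libraries lay above both control libraries for 2281 genes (21.2%) and below for 3703 (34.4%). The filter admitted 98 genes only through mDKO libraries and 255 only through control libraries. Such genes had to differ, and without them 85 higher and 316 lower genes remained.

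The most abundant messages of the egg were not among the called genes. Zbed3, the gene of a subcortical maternal complex partner and the most abundant one, had 27903 and 32509 TPM in mDKO oocytes, against 32636 and 33766 TPM in control oocytes (-0.14 ± 0.09, adjusted p = 0.372, limma). H1foo, the oocyte linker histone gene, had 16377 and 17845 TPM in mDKO and 15370.4 and 15123 TPM in control oocytes. Gdf9, the gene of an oocyte growth factor, had 15167 and 15769 TPM in mDKO and 14404 and 14089 TPM in control oocytes. None of the 20 most abundant genes was called, and the nearest to the threshold was Ldhb, a lactate dehydrogenase subunit gene, at 8135 and 6786 TPM in mDKO oocytes, against 4768 and 3359 TPM in control oocytes (0.89 ± 0.18, adjusted p = 0.0598). The Ldhb groups did not overlap.

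Calls were found over the whole range of abundance, with a different balance at each level. Among 3543 genes under a mean of 5 TPM, 3 were higher and 58 lower. Between 5 and 20 TPM, 20 of 2849 genes were higher and 109 lower. Between 20 and 100 TPM, 34 of 2564 were higher and 107 lower, and between 100 and 500 TPM 24 of 1462 were higher and 83 lower. At 500 TPM or more, 10 of 347 genes were called in each direction (2.88% each). Under size-factor scaling the last class held 16 higher and 4 lower genes, and the class before it 43 lower ones. The median mean TPM was 68.1 for higher, 22.9 for lower and 11.8 for all genes.

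**Figure D1:**
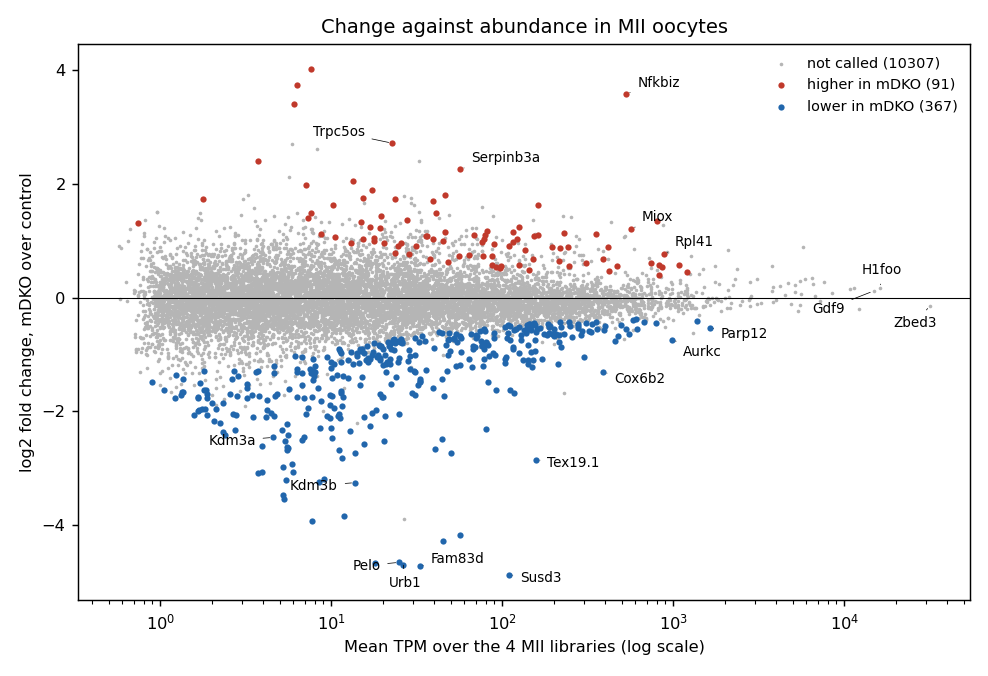
Each point is a gene tested in MII oocytes, at its mean TPM over the 4 libraries (log scale) and its log2 fold change of mDKO over control, coloured where it was called higher (91) or lower (367) in mDKO. The steepest losses, such as Susd3 and Fam83d, lie between 10 and 200 TPM, and the most abundant genes, such as Zbed3, lie near 0.

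The targeted genes matched their labels. Kdm3a (chromosome 6, 71588970 to 71632990, mm10) had 0.725 and 0.718 TPM in mDKO oocytes, against 8.08 and 8.83 TPM in control oocytes. Kdm3b had 1.75 and 1.87 TPM in mDKO oocytes, against 26.6 and 24.97 TPM in control oocytes. The Kdm3b groups did not overlap. Kdm3a passed the TPM filter only through control libraries, so its groups had to differ. Both genes fell in mDKO oocytes, Kdm3a by 2.46 ± 0.21 and Kdm3b by 3.25 ± 0.18 on the log2 scale (limma, adjusted p = 0.00804 and 0.00378, SE after ±, here and below with n = 2 libraries per group). Kdm3a passed in none of the fits that left out a library and Kdm3b in 2 of 4. The related Jmjd1c was low, at 2.50 and 2.13 TPM in mDKO oocytes, against 2.75 and 2.98 TPM in control oocytes, and did not pass (-0.22 ± 0.22, adjusted p = 0.585).

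Among genes above 1 TPM in all 4 libraries the largest rise was that of Nfkbiz (chromosome 16, 55811375 to 55838954), which encodes the nuclear inhibitor-like protein IkappaB-zeta, a modulator of NF-kappaB target genes. It had 975 and 992 TPM in mDKO oocytes, against 80.5 and 81.4 TPM in control oocytes. Its libraries differed little within a group and by an order of magnitude between groups (3.59 ± 0.07, adjusted p = 0.000177, called with any library left out). The gain of 903 mean TPM was the largest of any called gene. Of 32 tested members of the NF-kappaB pathway Nfkbiz alone was called (3.12%, near the 4.25% over all genes). Both mDKO libraries lay above both control libraries for 9 members and below for 10, and the list's median was -0.14 against -0.05 over all genes. Of its inflammatory target genes 4 were tested and 0 called (median -0.15; at an unadjusted p under 0.05 stood 2657 of the 10765 genes). The most abundant of these were Il17ra, with 21.9 and 25.4 TPM in mDKO and 21.8 and 25.5 TPM in control oocytes (adjusted p = 0.999), and Sod2 (-0.29 ± 0.19, adjusted p = 0.414).

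A neighbouring pair on the X chromosome followed. Trpc5, which encodes a calcium-permeable channel, had 12.2 and 11.7 TPM in mDKO oocytes, against 1.98 and 2.60 TPM in control oocytes, and rose by 1.98 ± 0.21. Its antisense gene Trpc5os had 40.9 and 39.4 TPM in mDKO oocytes, against 4.23 and 6.47 TPM in control oocytes, and rose by 2.72 ± 0.21 (limma, adjusted p = 0.0128 and 0.00734). The MII kit marks strand, per the labels' protocols, but whether the authors' counting used it is not stated, so reads of the pair may not be told apart. Trpc5 and Trpc5os were the only called genes among 43 tested members of the list of egg surface, calcium and signalling receptors (median -0.06). That is 4.65%, against 4.25% called and 0.845% called higher over all genes.

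Serpinb3a, a serine and cysteine protease inhibitor gene (chromosome 1, 107045587 to 107052303), had 91.8 and 98.1 TPM in mDKO oocytes, against 17.2 and 20.8 TPM in control oocytes (2.27 ± 0.13, adjusted p = 0.00484, called with any library left out). Mt1, which encodes the zinc-binding metallothionein 1, had 62.4 and 82.3 TPM in mDKO oocytes, against 13.9 and 27.6 TPM in control oocytes (1.81 ± 0.33, adjusted p = 0.0487). It was the 1 called of 18 metallothionein and zinc handling genes (5.56%, against 4.25% called and 0.845% called higher over all genes). Trappc2l, a subunit gene of a vesicle-tethering complex, had 28.5 and 15.9 TPM in mDKO oocytes, against 5.79 and 3.21 TPM in control oocytes (2.06 ± 0.36, adjusted p = 0.0452). None of these groups overlapped, but Trappc2l and Mt1 differed widely between libraries of a group, and both calls were lost when any library was left out. Wdr83os, Spag16, Pcbd2, Epha7, Asna1, Polr3k, Cldn34c1 and the olfactory receptor gene Olfr819 complete the highest genes, with log2 fold changes between 1.40 and 1.90. Of these, Epha7, an ephrin receptor gene, had 17.1 and 14.998 TPM in mDKO oocytes, against 3.92 and 5.06 TPM in control oocytes, and Asna1, which helps insert tail-anchored proteins into membranes, had 65.4 and 56.1 TPM in mDKO oocytes, against 27.3 and 15.8 TPM in control oocytes.

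Ranked by amount rather than by fold among called genes, the largest gain after Nfkbiz was that of 7420426K07Rik. Some genes that were not called differed by more, such as Ldhb, with a difference of 3397 mean TPM. 7420426K07Rik, a gene with no assigned role here, had 1239 and 1078 TPM in mDKO oocytes, against 440.4 and 468 TPM in control oocytes, a gain of 704 mean TPM (1.35 ± 0.09, adjusted p = 0.00515). Miox, the gene of myo-inositol oxygenase, had 832 and 752 TPM in mDKO oocytes, against 405 and 286 TPM in control oocytes (1.21 ± 0.17, adjusted p = 0.0283). Tbc1d14, a regulator of autophagosome formation, had 1229 and 1353 TPM in mDKO oocytes, against 863 and 869 TPM in control oocytes (0.57 ± 0.07), and the beta-tubulin gene Tubb3 had 1312 and 1458 TPM in mDKO oocytes, against 1034 and 985 TPM in control oocytes (0.45 ± 0.08). The oocyte homeobox gene Obox7 had 1081 and 964 TPM in mDKO oocytes, against 680.4 and 724 TPM in control oocytes (0.54 ± 0.08); it belongs to a family of close copies among which reads can be split. Polr2j, a subunit gene of RNA polymerase II, had 917 and 882 TPM in mDKO and 618 and 562 TPM in control oocytes (0.61 ± 0.08). The remaining members of the 10 largest gains among called genes were Nfkbiz and the ribosomal protein genes Rpl41, Rps2 and Rplp1.

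**Figure D2:**
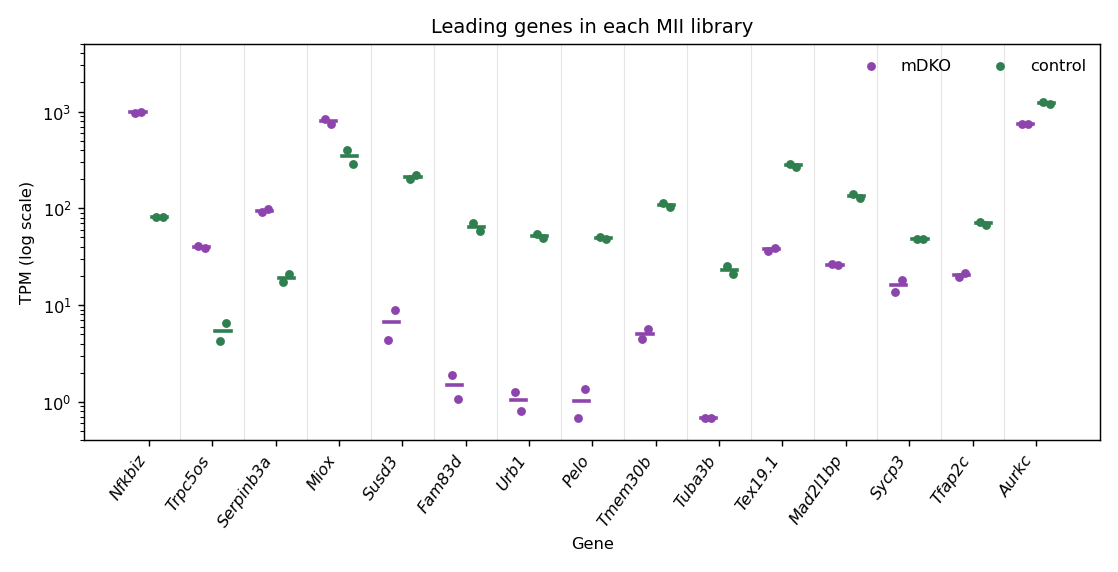
Each point is the TPM (log scale) of 1 MII library, mDKO at the left and control at the right of each gene, with a bar at the group mean of 2 libraries. Nfkbiz, Trpc5os, Serpinb3a and Miox lie higher in mDKO and the other 11 genes lower, and in no gene do the groups overlap. Tuba3b passed the TPM filter only through control libraries and so had to differ.

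The deepest loss was of Susd3 (chromosome 13, 49230511 to 49248706), which encodes a membrane protein with a sushi domain. It had 4.36 and 8.91 TPM in mDKO oocytes, against 203 and 223 TPM in control oocytes, and fell by 4.87 ± 0.29 on the log2 scale (limma, adjusted p = 0.00484). Fam83d, a gene of a spindle protein that brings casein kinase 1 to the mitotic spindle, had 1.90 and 1.08 TPM in mDKO oocytes, against 70.01 and 58.5 TPM in control oocytes, and fell by 4.73 ± 0.23. Urb1, a gene of ribosome assembly in the nucleolus, had 1.27 and 0.799 TPM in mDKO oocytes, against 54.2 and 49.5 TPM in control oocytes, and fell by 4.71 ± 0.20. In none of these genes did the groups overlap. Pelo, the gene of a factor that rescues stalled ribosomes, had 0.681 and 1.35 TPM in mDKO oocytes, against 50.3 and 47.9 TPM in control oocytes, and fell by 4.65 ± 0.22.

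Cell-surface genes were among the next. Cxcr3, a chemokine receptor gene, had 4.51 and 2.76 TPM in mDKO oocytes, against 81.4 and 92.6 TPM in control oocytes, and fell by 4.27 ± 0.22. Tmem30b, a subunit gene of lipid flippases, had 4.48 and 5.69 TPM in mDKO oocytes, against 113 and 103 TPM in control oocytes, and fell by 4.17 ± 0.16 (adjusted p = 0.00196, called with any library left out). Adam8, a membrane metalloprotease gene, had 0.640 and 0.951 TPM in mDKO and 19.1 and 13.1 TPM in control oocytes. The groups of Cxcr3 and Tmem30b stood far apart. Sox8, a transcription factor gene of the testis and neural crest, was listed at 0 in mDKO replicate 1 and at 0.132 TPM in replicate 2, against 13.03 and 17.7 TPM in control oocytes (adjusted p = 0.00515). Trim62, Coro2a, Zfp41 and Ust fell, with log2 fold changes of -3.21, -3.06, -2.98 and -2.92. Adam8, Sox8, Trim62, Coro2a, Zfp41 and Ust passed the TPM filter only through control libraries and so had to differ. Repin1, a zinc-finger gene, had 11.9 and 13.1 TPM in mDKO oocytes, against 86.9 and 89.9 TPM in control oocytes, and fell by 2.73 ± 0.12. Susd3 passed in 2 of 4 fits that left out a library, Pelo, Cxcr3 and Sox8 in 3, and Fam83d, Urb1, Tmem30b and Repin1 in 4.

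By amount, the largest loss among called genes was that of Parp12, while some genes that were not called differed by more, such as Zbed3 (-2995 mean TPM). Parp12, a mono-ADP-ribosyltransferase gene, had 1299.5 and 1386 TPM in mDKO oocytes, against 1875 and 1991 TPM in control oocytes, a difference of -589.7 mean TPM (-0.52 ± 0.07, adjusted p = 0.0229). Cpa1, a carboxypeptidase gene, had 1169 and 1204 TPM in mDKO oocytes, against 1554 and 1606 TPM in control oocytes (-0.41 ± 0.06). Cox6b2, the germline form of a cytochrome c oxidase subunit, had 230.0 and 217 TPM in mDKO oocytes, against 574 and 541 TPM in control oocytes (-1.31 ± 0.08, adjusted p = 0.00484). Parp12 and Cpa1 thus kept the larger part of their control level, and Cox6b2 the smaller part. Aurkc and Tex19.1, described below, were also among the 10 largest, and Pld1, Mark2, Dnal4, Rnf141 and 1700021K19Rik fell by 0.44 to 0.77.

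Well-known germline genes were among the losses. Tex19.1, which restrains transposons in germ cells and early embryos, had 36.5 and 39.05 TPM in mDKO oocytes, against 289.7 and 268 TPM in control oocytes, and fell by 2.85 ± 0.09 (adjusted p = 0.00156, called with any library left out). Tuba3b, a testis-type alpha-tubulin gene, had 0.689 and 0.677 TPM in mDKO oocytes, against 25.3 and 20.8 TPM in control oocytes, and fell by 3.83 ± 0.21 (adjusted p = 0.00378, likewise). No other member of the piRNA list or of the list of germline genes silenced in somatic cells was called. Of 25 tested genes of the piRNA pathway and transposon control Tex19.1 alone was called, though both mDKO libraries lay below both control libraries for 14 and above them for 0 (median -0.23; all genes -0.05, with 34.4% below). Of 15 tested germline genes that are silenced in somatic cells Tuba3b alone was called (median -0.10), a gene that passed the TPM filter only through control libraries and so had to differ. Without it, 0 of 14 were called by limma (median -0.07).

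Meiotic prophase genes, which build and recombine paired chromosomes long before MII, were lower for 4 and higher for 0 of 23 tested members (17.4% lower, against 3.41% over all genes), with a median of -0.24. Tex15, a gene needed for meiotic recombination and silencing of transposons in male germ cells, had 1.57 and 0.787 TPM in mDKO oocytes, against 7.92 and 7.51 TPM in control oocytes, and fell by 2.03 ± 0.26. Sycp3, an axis component of the synaptonemal complex, had 13.8 and 18.3 TPM in mDKO oocytes, against 47.8 and 48.7 TPM in control oocytes, and fell by 1.54 ± 0.17. Sycp1, which forms the transverse filaments of that complex, had 3.11 and 3.37 TPM in mDKO and 9.45 and 9.46 TPM in control oocytes, and fell by 1.30 ± 0.19. The adjusted p-values (limma) were 0.0218, 0.0134 and 0.0302. Msh4, a crossover gene, had 56.6 and 60.01 TPM in mDKO and 96.2 and 110.3 TPM in control oocytes, and fell by 0.81 ± 0.11, and Tex12, another synaptonemal gene, did not pass at -1.09 ± 0.20 (adjusted p = 0.0513). Both mDKO libraries lay below both control libraries for 14 of the 23 genes (60.9%, against 34.4% over all genes). Of the 4 calls 1 was left without mDKO replicate 2 and 0 without any other library.

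The promoter sequence of 3 of these lost genes is shown because the deleted enzymes act on chromatin and the genes differ in how rich in CpG their starts are. Each run is the 250 bases before the start given for the gene's promoter on GRCm38.p6, written 5′ to 3′ on the gene's strand, with CpG pairs in capitals. For Tex19.1 and Tuba3b that is the RefSeq gene start. The Susd3 run lies inside the annotated gene, which reaches to 49248706, so it is not upstream of the whole gene. Susd3 lies on the minus strand (chr13:49248295-49248544), Tex19.1 on the plus strand (chr11:121145893-121146142) and Tuba3b on the plus strand (chr6:145615713-145615962).
Susd3: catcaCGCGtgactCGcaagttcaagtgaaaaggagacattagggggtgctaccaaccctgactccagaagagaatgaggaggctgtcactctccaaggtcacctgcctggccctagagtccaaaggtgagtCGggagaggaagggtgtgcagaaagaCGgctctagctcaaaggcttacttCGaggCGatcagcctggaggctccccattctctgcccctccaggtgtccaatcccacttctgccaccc
Tex19.1: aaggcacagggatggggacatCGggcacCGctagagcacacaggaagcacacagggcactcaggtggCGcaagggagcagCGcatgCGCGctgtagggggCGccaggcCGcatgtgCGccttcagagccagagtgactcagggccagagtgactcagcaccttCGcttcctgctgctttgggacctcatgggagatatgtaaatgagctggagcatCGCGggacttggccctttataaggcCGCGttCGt
Tuba3b: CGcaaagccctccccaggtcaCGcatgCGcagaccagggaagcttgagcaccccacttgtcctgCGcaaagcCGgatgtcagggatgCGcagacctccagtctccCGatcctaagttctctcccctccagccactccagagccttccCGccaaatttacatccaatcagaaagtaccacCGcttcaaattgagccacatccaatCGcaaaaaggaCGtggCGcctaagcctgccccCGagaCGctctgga
Susd3 held 7 CpG pairs in these 250 bases, Tex19.1 15 and Tuba3b 14, at GC contents of 56.8%, 61.6% and 58.4%. In windows of 300 bases that run 50 bases past the start they held 10, 16 and 16, and the median was 19 CpG over promoters of lower genes, 18 over those of higher genes and 21 over genes not called. GGCGGGA, part of the E2F binding site, was in the windows of Susd3 and Tuba3b on either strand, CCAAT likewise, and TATAAA in that of Tex19.1. Over the windows of all 8693 genes with a promoter, 22.0% held GGCGGGA, 39.4% CCAAT and 7.14% TATAAA.

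The Xlr genes, an X-linked cluster of germ-cell genes related to the synaptonemal protein SYCP3, were listed with the Rhox genes. Among the 11 tested, 7 were lower (63.6%, against 3.41% over all genes), 0 higher and 4 not called, with a median of -1.30 against -0.05 over all genes. Of the 7 called, 4 passed the TPM filter only through control libraries and so had to differ. Among the other 7 members 3 fell, with a median of -0.94. Xlr5b was listed at 0 in both mDKO libraries, against 9.91 and 11.3 TPM in control oocytes. Xlr5c, Xlr5a and Xlr3c were also listed at 0 in both, against 6.84 and 8.09, 3.42 and 2.93 and 1.76 and 2.44 TPM in control oocytes. An exact 0 in TPM can come from the assignment of reads between copies, and no fold is given. Xlr3b had 0.771 and 1.26 TPM in mDKO oocytes, against 15.9 and 18.6 TPM in control oocytes, and fell by 3.19 ± 0.23 (adjusted p = 0.00617).

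The remaining Xlr genes kept part of their level. Xlr4b had 10.4 and 10.4 TPM in mDKO and 21.4 and 25.01 TPM in control oocytes (-1.08 ± 0.16) and Xlr3a 10.5 and 9.38 TPM in mDKO and 19.8 and 20.2 TPM in control oocytes (-0.94 ± 0.15). Xlr4c had 22.1 and 23.2 TPM in mDKO and 35.3 and 36.96 TPM in control oocytes and Xlr4a 2.89 and 1.66 TPM in mDKO and 4.76 and 9.97 TPM in control oocytes, and neither passed (adjusted p = 0.0512 and 0.121). The Rhox genes Rhox10 and Rhox8 did not pass either, at -0.21 and 0.21. Summed over the list, which does not depend on how reads were split within it, the level was 50.8 and 51.2 TPM in mDKO and 123 and 141 TPM in control oocytes. With a library left out, 3, 2, 1 and 0 members stayed called (without mDKO replicate 2, mDKO replicate 1, control replicate 1 and control replicate 2).

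Because the Xlr copies are so alike, a pair of their promoters is shown as an example, again as the 250 bases before the start given for each promoter on GRCm38.p6 with CpG in capitals. Xlr3b lies on the plus strand (chrX:73191929-73192178) and Xlr3c on the minus strand (chrX:73265391-73265640). The Xlr3b window ends inside the annotated gene, which starts at 73192150.
Xlr3b: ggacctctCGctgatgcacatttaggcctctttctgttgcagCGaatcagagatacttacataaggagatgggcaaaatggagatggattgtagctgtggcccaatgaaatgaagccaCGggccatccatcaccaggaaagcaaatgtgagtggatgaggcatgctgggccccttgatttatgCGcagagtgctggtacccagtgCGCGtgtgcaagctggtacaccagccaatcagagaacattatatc
Xlr3c: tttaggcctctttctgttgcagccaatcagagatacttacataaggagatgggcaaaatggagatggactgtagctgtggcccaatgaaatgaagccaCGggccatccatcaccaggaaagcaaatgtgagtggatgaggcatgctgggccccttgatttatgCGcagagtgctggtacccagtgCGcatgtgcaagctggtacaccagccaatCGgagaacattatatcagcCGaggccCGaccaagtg
Shifted by 20 bases against each other, 226 of the 230 shared positions were identical and 4 differed. Each window held 6 CpG pairs. The annotated genes Xlr3a, Xlr5a, Xlr5b, Xlr3b and Xlr4b formed the longest run of adjacent called genes, between 73086293 and 73222453 on chromosome X, and Xlr3c and Xlr5c were a second run, between 73254538 and 73293863.

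The lists of the meiotic division held few calls, at shares near or below the 4.25% over all genes. Mad2l1bp, which removes MAD2 from the spindle checkpoint complex, had 26.5 and 25.9 TPM in mDKO oocytes, against 139 and 128 TPM in control oocytes, and fell by 2.31 ± 0.10 (adjusted p = 0.00256, called with any library left out). It was the 1 called gene of 38 tested (2.63%) in the anaphase-promoting complex and meiotic arrest list, whose median was 0.07. Aurkc, the germ-cell Aurora kinase gene that works with AURKB at meiotic chromosomes, had 738 and 742 TPM in mDKO oocytes, against 1271 and 1199 TPM in control oocytes, and fell by 0.74 ± 0.07 (adjusted p = 0.00861), alone among 40 kinases and cyclins of maturation (2.5%, median 0.01). Both losses were outside the spread of their replicates, and Aurkc kept the larger part of its level.

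Of 77 spindle, kinetochore and cytokinesis genes 3 were lower (3.90%) and 0 higher, with a median of -0.05. They were Fam83d, Cenpa and Ckap2. Cenpa, which encodes the centromeric histone H3 variant, had 77.4 and 96.2 TPM in mDKO oocytes, against 199.5 and 190.5 TPM in control oocytes, and fell by 1.17 ± 0.13 (adjusted p = 0.0134). Ckap2, a spindle microtubule gene, fell by 0.64 ± 0.08. Of 17 tubulin genes 2 were higher (11.8%, against 0.845% over all genes), with a median of 0.28. They were Tubb3 and Tubb5 (0.77 ± 0.13), and both calls hang on all 4 libraries. With a library left out the tubulin median ranged from 0.13 to 0.38. The 1 lower gene was Tuba3b (5.88%, against 3.41% over all genes), which passed the TPM filter only through control libraries. Cfl1, an actin-severing cofilin gene, was the 1 called among 37 actin and cortex genes (0.68 ± 0.11).

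Among 52 transcription factors of genome activation and early lineages 1 was higher (Obox7) and 4 lower (7.69%, against 3.41% over all genes), with a median of -0.11. Tfap2c, the AP-2 gamma gene of germ cells and trophoblast, had 19.6 and 21.3 TPM in mDKO oocytes, against 73.01 and 67.9 TPM in control oocytes, and fell by 1.74 ± 0.12 (adjusted p = 0.00515). Tead2, a partner of YAP, had 2.06 and 3.06 TPM in mDKO oocytes, against 8.61 and 14.1 TPM in control oocytes, and fell by 1.77 ± 0.30 (adjusted p = 0.0423). Zbtb24 and Nfya, a subunit gene of the factor that binds CCAAT, fell by 0.72 and 0.43. With a library left out the lower count was 1, 1, 0 and 0 (mDKO replicates 1 and 2, control replicates 1 and 2). Of the 10 tested early 2-cell genes, 1 was lower: Zfp809, a repressor of retroviral sequences, had 0.533 and 0.791 TPM in mDKO and 3.54 and 5.33 TPM in control oocytes (-1.69 ± 0.27, adjusted p = 0.0364), and passed the TPM filter only through control libraries.

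In the lists of genes that handle RNA and ribosomes, the shares of lower genes ran from 0 to 3.28%, below the 3.41% over all genes. Pelo was the 1 called of 31 ribosome rescue and mRNA surveillance genes (median -0.01), and Urb1 the 1 called of 75 ribosome biogenesis genes (median -0.09). In mRNA export and nuclear transport 2 of 61 were lower. Nxt2, an export cofactor gene, had 0.910 and 2.09 TPM in mDKO oocytes, against 9.93 and 14.9 TPM in control oocytes (-2.44 ± 0.33, adjusted p = 0.0255), and Ddx39, a helicase gene of the export pathway, had 61.97 and 67.7 TPM in mDKO oocytes, against 138 and 151 TPM in control oocytes (-1.14 ± 0.10, adjusted p = 0.00869). Msi2, a translational regulator gene, was the 1 lower of 38 storage and translational control genes (-1.94 ± 0.28). Of 37 maternal clearance genes Cnot3 was higher (0.46 ± 0.07) and Pan3 lower (-0.66 ± 0.10), both subunit genes of deadenylases, and Plrg1 was the 1 lower of 67 spliceosome genes (-0.45 ± 0.08). None of 48 translation initiation factors was called (median -0.06), Eif4a1 (0.03 ± 0.06) and Eif5a (-0.09 ± 0.06) being the most abundant.

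Among genes of carbon, lipid and glutathione metabolism the shares called were 4.76%, 3.77% and 5.71%, near the 4.25% over all genes. Got1, the cytosolic aspartate aminotransferase gene of the malate-aspartate shuttle, had 3.12 and 2.69 TPM in mDKO oocytes, against 23.8 and 25.8 TPM in control oocytes, and fell by 2.73 ± 0.18 (adjusted p = 0.00515), while Pkm, the pyruvate kinase gene, rose by 0.54 ± 0.10. They were the called genes among 42 of glycolysis, pyruvate and citrate metabolism (median 0.06). Acadm, which oxidises medium-chain fatty acids, had 17.4 and 16.8 TPM in mDKO oocytes, against 49.01 and 49.6 TPM in control oocytes, and fell by 1.47 ± 0.12, and Dgat2, a triglyceride synthesis gene, fell by 1.30 ± 0.20, among 53 lipid genes (median 0.02).

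In glutathione metabolism 2 of 35 genes were lower. Gclc, the catalytic subunit gene of the rate-limiting enzyme of glutathione synthesis, had 3.06 and 4.01 TPM in mDKO oocytes, against 24.4 and 19.8 TPM in control oocytes, and fell by 2.35 ± 0.21 (adjusted p = 0.00869). Gstp1, a glutathione transferase gene, had 12.9 and 14.2 TPM in mDKO oocytes, against 39.7 and 51.7 TPM in control oocytes, and fell by 1.68 ± 0.17. Its neighbour and close copy Gstp2, which is outside that list and was singled out after its values were seen, had 2.98 and 2.87 TPM in mDKO and 19.2 and 12.6 TPM in control oocytes (-2.08 ± 0.25). Summed over the pair, between which reads may be split, the level was 15.8 and 17.02 TPM in mDKO oocytes, against 58.9 and 64.2 TPM in control oocytes. Of the other stress genes, Hspb1, a small heat shock gene, had 4.27 and 3.96 TPM in mDKO and 18.2 and 14.02 TPM in control oocytes (-1.73 ± 0.20), Dnajb1 fell by 0.73 ± 0.13, and Hsp90b1, an endoplasmic reticulum chaperone gene, had 159 and 149 TPM in mDKO oocytes, against 73.3 and 80.8 TPM in control oocytes, and rose by 0.99 ± 0.10.

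Ribosomal protein and respiratory chain genes lay on the higher side. Of 81 cytosolic ribosomal protein genes 6 were higher (7.41%, against 0.845% over all genes), 0 lower and 75 not called, with a median of 0.21 against -0.05 over all genes. Rpl41 had 1223 and 1012 TPM in mDKO oocytes, against 627 and 673 TPM in control oocytes (0.78 ± 0.11), Rplp1 556 and 420.3 TPM in mDKO oocytes, against 248 and 197 TPM in control oocytes (1.13 ± 0.17), and Rps12, of the small subunit, 318 and 246 TPM in mDKO and 155 and 149 TPM in control oocytes (0.88 ± 0.13). Summed over the list, mDKO oocytes had 8638 and 8806 TPM and control oocytes 6467 and 6939 TPM. The median deviation of these genes from their 4-library mean was -0.04 and 0.22 in mDKO and -0.21 and 0.07 in control libraries, so by that measure the groups overlapped. Without control replicate 1 the median log2 fold change was 0.03, without mDKO replicate 2 it was 0.02, and the higher count was 0, 4, 0 and 1 (mDKO replicates 1 and 2, control replicates 1 and 2).

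The respiratory chain and ATP synthase list held 5 higher (6.41%), 0 lower and 73 genes not called of 78. It does not include the lower gene Cox6b2, with which it would hold 1 lower. The list had a median of 0.31, and both mDKO libraries lay above both control libraries for 43 genes (background 21.2%). Uqcr11, a subunit gene of complex III, had 195 and 156 TPM in mDKO oocytes, against 80.3 and 66.96 TPM in control oocytes (1.24 ± 0.15, adjusted p = 0.019). Cox6c, of complex IV, had 355 and 282 TPM in mDKO oocytes, against 162 and 127 TPM in control oocytes (1.14 ± 0.16, adjusted p = 0.0297). Cox6b1, the somatic counterpart of the lower Cox6b2, had 193 and 127 TPM in mDKO oocytes, against 65.1 and 74.1 TPM in control oocytes (1.16 ± 0.21), and Uqcrh had 124 and 93.7 TPM in mDKO and 55.04 and 44.4 TPM in control oocytes (1.11 ± 0.18). The sum was 6176 and 5421 TPM in mDKO and 4518 and 3994 TPM in control oocytes, and the median deviation was 0.21 and 0.14 in mDKO and -0.09 and -0.22 in control libraries. Leaving out a library left 3 calls (without mDKO replicate 2) or 0, with medians between 0.21 and 0.40. Of the mitochondrial ribosomal proteins 1 was higher (Mrpl30, 1.13 ± 0.20) and 1 lower (Mrpl10, -0.63 ± 0.09) of 74 tested, with a median of -0.03.

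**Figure D3:**
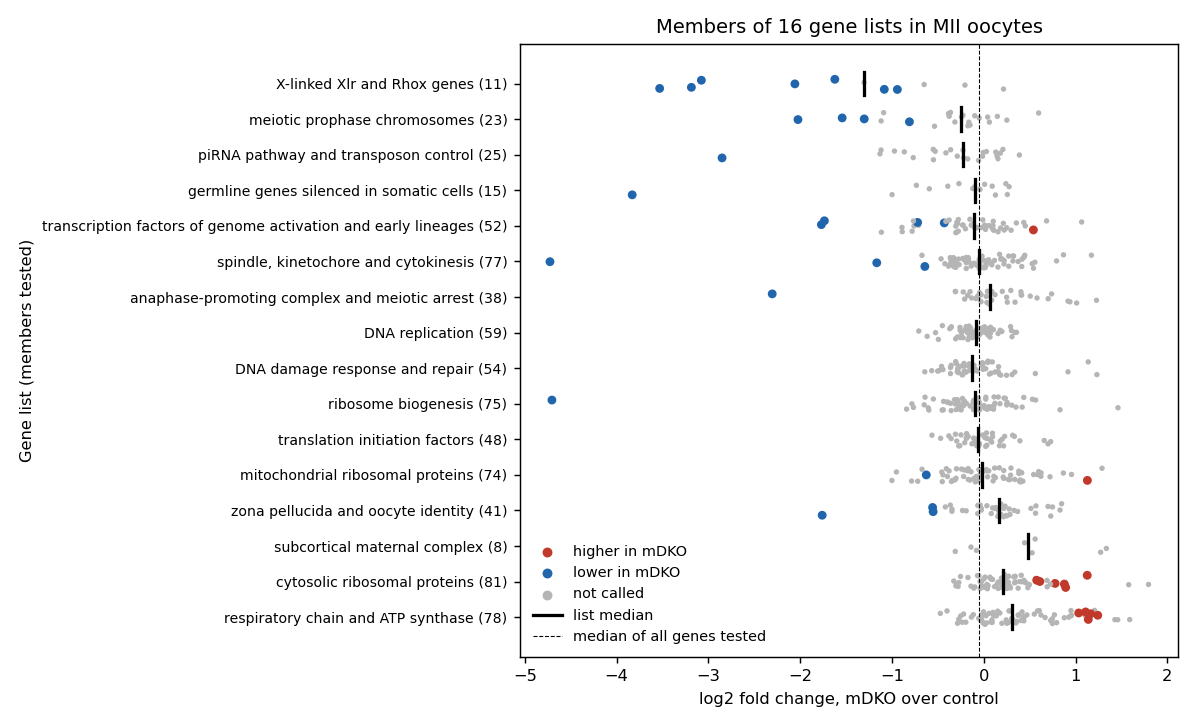
Each point is a tested gene of 16 lists at its log2 fold change of mDKO over control in MII oocytes, with the list median as a thick bar and the median of all tested genes as a dashed line. The Xlr and Rhox list lies lowest, at a median of -1.30 (-0.94 without the 4 members that passed the TPM filter only through control libraries), and the subcortical maternal complex (0.48) and respiratory chain (0.31) lists highest, while single deep losses stand out in the piRNA, germline, spindle, anaphase-promoting complex and ribosome biogenesis lists.

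Shorter transcripts were more often higher in mDKO oocytes. Higher genes had a median length of 1822 bases for the longest annotated transcript, lower genes 3169 and genes not called 3377 bases. Of 527 genes up to 1000 bases long 19 were higher (3.61%) and 11 lower (2.09%), with a median log2 fold change of 0.16. Of 629 genes over 8000 bases 0 were higher and 16 lower (2.54%), with a median of -0.11. The share of lower genes did not follow that order: it was highest between 1000 and 2000 bases (4.01%) and below the 3.41% over all genes in both the shortest and the longest class. The median deviation of the shortest class was 0.06 and 0.11 in mDKO and -0.05 and -0.08 in control libraries. Within it, 35 ribosomal protein genes had a median of 0.23, 35 respiratory genes 0.43 and the other 457 genes 0.13. The part of length, or of a library property tied to it, in the ribosomal and respiratory values was not tested.

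**Figure D4:**
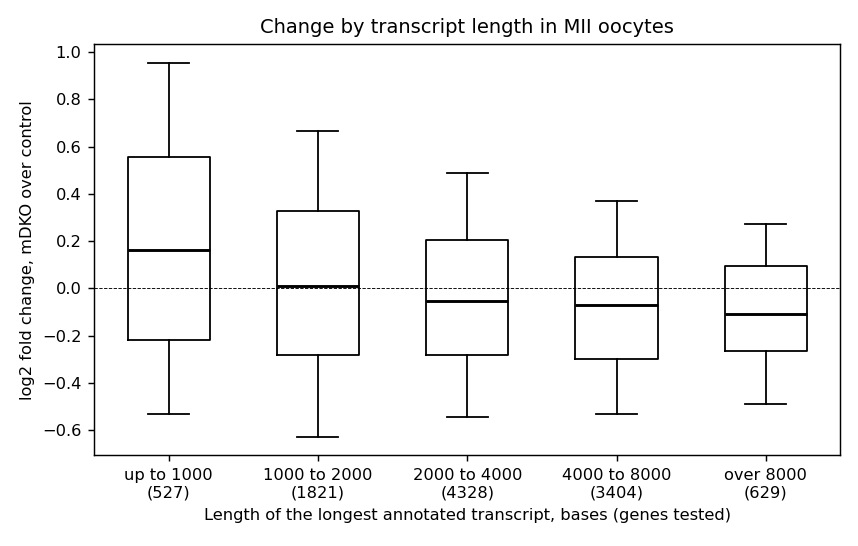
Boxes give the quartiles and whiskers the central 80% of log2 fold changes of mDKO over control in MII oocytes, by length class of the longest annotated transcript in bases, with the number of genes in brackets. The median is 0.16 in the shortest class and -0.11 in the longest.

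Of 41 zona pellucida and oocyte identity genes 3 were lower (7.32%, against 3.41% over all genes) and 0 higher, while the median was 0.16 and the summed level 89276 and 91789 TPM in mDKO and 78021 and 80282 TPM in control oocytes. Ovol1, a zinc-finger gene that passed the TPM filter only through control libraries, fell by 1.76 ± 0.26, and Oog4 and Nlrp4b, of oocyte-specific families with close copies, by 0.56 and 0.55. Nlrp4b was also the 1 called of 12 oocyte Nlrp genes, whose median was -0.27. The subcortical maternal complex, a protein lattice under the egg's membrane that embryos need, had 0 of 8 members called by limma, though its median was 0.48. Nlrp5, one of its core genes, had 1491 and 955 TPM in mDKO oocytes, against 669.6 and 363 TPM in control oocytes (1.27 ± 0.34, adjusted p = 0.0984), and its partner Ooep had 804 and 436 TPM in mDKO oocytes, against 331 and 165 TPM in control oocytes (1.34 ± 0.41, adjusted p = 0.131). In both genes replicate 1 exceeded replicate 2 in each group. The list's median ranged from 0.08 without control replicate 2 to 0.80 without control replicate 1.

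Over 5 chromatin lists outside the targeted genes, 7 of 117 tested genes were called (5.98%, against 4.25% over all genes), 3 of them higher and 4 lower. Without the genes that passed the TPM filter through only 1 group, 3 of 113 were higher and 3 lower. Of 15 other histone demethylases Kdm7a, which acts on H3K9 and H3K27, had 52.9 and 54.6 TPM in mDKO oocytes, against 94.3 and 109.5 TPM in control oocytes, and fell by 0.91 ± 0.11, and Kdm1b, which acts on H3K4 in growing oocytes, had 162 and 172 TPM in mDKO oocytes, against 119 and 118 TPM in control oocytes, and rose by 0.49 ± 0.08 (limma, adjusted p = 0.0197 and 0.042). Dnmt3l, the cofactor gene of de novo DNA methylation in oocytes, had 247 and 198 TPM in mDKO oocytes, against 120.4 and 85.9 TPM in control oocytes, and rose by 1.11 ± 0.19 (adjusted p = 0.0436), the 1 called of 14 DNA methylation genes. Of 22 genes of H3K9 methylation and its readers Zfp809 alone was called, which passed the TPM filter only through control libraries and so had to differ. Without such genes, 0 of 20 were called by limma. Of 35 Polycomb and related repressors Rnf2 alone was called (-0.51 ± 0.09), a call that was lost with size-factor scaling. Of 31 histone variants and chaperones Npm3 was higher (0.74 ± 0.11) and Cenpa lower. Apart from Zfp809, none of these calls exceeded 1.2 in size on the log2 scale. Like the counts over all genes, the calls in these 5 lists hang on all 4 libraries.

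Phlda2, an imprinted gene that limits placental growth and is expressed from the maternal copy, had 4.90 and 7.61 TPM in mDKO oocytes, against 32.4 and 24.1 TPM in control oocytes, and fell by 2.02 ± 0.26 (adjusted p = 0.0209). It was the 1 called of 25 imprinted genes (4%, against 4.25% over all genes, with a median of -0.20). Single calls also came from the p53 and apoptosis list (Ccng2, -1.18 ± 0.15, 1 of 35) and interferon and nucleic acid sensing (Mavs, -0.78 ± 0.14, 1 of 15). The proteasome list held 1 of 44 (Psmg3, -0.90 ± 0.16) and RNA polymerase II 1 of 67 (Polr2j). Among protease inhibitors and cathepsins 2 of 22 were called, Ctsd (-0.77 ± 0.12) beside Serpinb3a. In ubiquitin-like conjugation (31 tested) Ube2m rose (0.91 ± 0.15) and Uba3 fell (-0.54 ± 0.08), both enzyme genes of NEDD8 attachment. In autophagy and lysosome genes (47 tested) Map1lc3a (1.22 ± 0.20) and Atp6v0e (1.09 ± 0.11) rose and Wipi1 (-1.10 ± 0.16) fell. The shares called in these lists, with 1 to 3 calls each, ran from 1.49% to 9.09%, on both sides of the 4.25% over all genes. DNA replication (59 tested, median -0.09) and DNA repair (54 tested, median -0.13) held 0 calls by limma, beside 2657 genes overall at an unadjusted p under 0.05. Their most abundant members included Dbf4 at -0.36 ± 0.08 (adjusted p = 0.073) and Chek1 at -0.28 ± 0.08 (adjusted p = 0.111).

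Somatic RNA did not change past the threshold. Cumulus and granulosa markers held 0 calls of 20 tested by limma, with a median of 0.22. Their median deviation was -0.15 and 0.47 in mDKO and -0.72 and 0.39 in control libraries, so the groups overlapped. Blood and sperm markers held 0 calls of 5 and of 4 (medians 0.40 and -0.25).

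Some opposite values came from pairs of numbered predicted genes on the same chromosome. Gm11236 had 15.6 and 14.9 TPM in mDKO oocytes and was listed at 0 and 0.00210 TPM in control oocytes, whereas Gm11237 had 1.06 TPM and was listed at 0 in mDKO oocytes, against 34.6 and 36.1 TPM in control oocytes. Their sum was 16.7 and 14.9 TPM in mDKO and 34.6 and 36.1 TPM in control oocytes. LOC100862015, with no position in the annotation used, had 14.4 and 10.7 TPM in mDKO oocytes, and its control values were those of Gm11236. Gm11757 had 10.6 and 13.1 TPM in mDKO oocytes and was listed at 0 and 0.473 TPM in control oocytes, whereas Gm11758 was listed at 0 in both mDKO libraries, against 7.74 and 13.1 TPM in control oocytes. That pair summed to 10.6 and 13.1 TPM in mDKO and 7.74 and 13.5 TPM in control oocytes, values that overlap. Tuba3a, a close copy of Tuba3b, had 30.97 and 27.7 TPM in mDKO oocytes, against 71.4 and 49.7 TPM in control oocytes (-1.0 ± 0.19, adjusted p = 0.0549), and the 2 genes summed to 31.7 and 28.4 TPM in mDKO and 96.7 and 70.5 TPM in control oocytes. How reads were shared within these pairs was not tested, and all but Tuba3b and LOC100862015 were singled out after their values were seen.

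Some large differences were not called, most of which rested on 1 library. Rpl26, a ribosomal protein gene, was listed at 0 in control replicate 1 and at 55.7 TPM in control replicate 2, with 22.5 and 28.04 TPM in mDKO oocytes. Cphx1, an oocyte homeobox gene, had 33.4 and 272 TPM in mDKO and 305 and 313 TPM in control oocytes. Amd1, which makes a precursor of polyamines, had 0.0850 and 0.00246 TPM in mDKO and 1.26 and 105 TPM in control oocytes. Mettl14, a subunit gene of the RNA methyltransferase that writes m6A, had 64.9 and 44.8 TPM in mDKO oocytes, against 16.5 and 5.14 TPM in control oocytes, and did not pass (2.41 ± 0.50, adjusted p = 0.0633), although its groups did not overlap. These genes too were singled out after their values were seen. At the threshold itself, Efnb1 and Rnf182 were the last genes called (adjusted p = 0.0498 and 0.05) and 1110051M20Rik and Kazn the first not called (0.0504 and 0.0504).

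Sequence features are given as a description, with no test. The median GC content of the transcript was 51.5% in lower, 49.5% in higher and 49.1% in genes not called, and 7.67% of lower, 3.37% of higher and 5.38% of genes not called had a single exon. Promoters were found for 301 lower and 75 higher genes and for 80.8% of all tested genes. CACGTG was in 13.6% of lower, 8% of higher and 10.4% of all promoters, GGCGGGA in 20.9%, 16% and 22.0%, and TGACGTCA in 3.65%, 0% and 3.47%, on either strand of 300-base windows. The X chromosome held 23 lower genes of 354 tested (6.50%, against 3.41% over all chromosomes), of which 7 were Xlr genes, 4 of these through control libraries only, and chromosome 18 held 3 of 279 (1.08%). Adjacent genes called in the same direction included AU018091, Myadm and Cacng7 on chromosome 7, Parp12 and Kdm7a on chromosome 6, and Gstp1 and Gstp2 on chromosome 19.

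Whether these differences were also present in embryos made from such eggs was read from libraries that took no part in choosing them. Of the 367 genes lower in mDKO oocytes, 313 were tested at E2C, where 130 (41.5%) were lower and 2 higher in mDKO embryos. That compares with 7.29% lower among all genes tested at both stages (8.99% of all genes tested at E2C). In E2C embryos injected with mCherry, 164 of 295 (55.6%) were lower and 39 higher, against 18.7% lower over genes tested in both (20% of all tested there). At L2C, once the embryo's own genome is active, 79 of 305 (25.9%) were lower, near the 23.0% over genes tested in both (23.3% of all tested there). The other 40 called genes (13.1%) were higher, against 21.0% over genes tested in both. The median log2 fold change at L2C was -0.21, against 0.04 over genes tested in both. Read the other way, the 130 genes were 19.1% of the 680 E2C-lower genes that were tested at MII. With single libraries left out the count of 130 ranged from 6 to 155, falling to 22, 44, 11 and 6 without mDKO MII replicates 1 and 2 and control MII replicates 1 and 2, and to 25 and 15 without control E2C replicates 1 and 2.

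Of the 91 genes higher in mDKO oocytes, 88 were tested at E2C, where 29 (33.0%) were higher and 4 lower, against 5.88% higher over genes tested at both stages (5.38% of all tested there). The background was not matched for abundance. The median control level at E2C was 55.9 TPM for the 91 higher genes and 9.44 TPM for all genes tested at MII. In injected E2C embryos 48 of 91 (52.7%) were higher and 12 lower, against 29.4% (26.9%). At L2C 47 of 88 (53.4%) were higher and 18 lower, against 21.0% (19.1%). These counts ranged from 3 to 39 at E2C, 3 to 44 in injected embryos and 3 to 45 at L2C with a library left out. Over the 3 embryo comparisons together, 40 of 275 lower genes (14.5%) were called lower in each, against 1.47% of the 8792 genes tested in all 4 comparisons. Of 87 higher genes 20 (23.0%) were called higher in each, against 1.85%. The 40 included Susd3, Tex19.1, Tuba3b, Sycp3, Tex15, Got1, Acadm, Gstp1, Gstp2, Phlda2, Cox6b2 and 4 Xlr genes, and the 20 included Nfkbiz, Serpinb3a, Trpc5, Trpc5os, Miox and Kdm1b.

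Single genes illustrate the later values. Nfkbiz had 10.2 and 10.1 TPM in mDKO and 1.38 and 1.16 TPM in control E2C embryos (2.30 ± 0.25). Susd3 had 0.100 and 1.67 TPM in mDKO and 41.4 and 47.4 TPM in control E2C embryos, and at L2C 1.55 and 3.44 TPM in mDKO and 33.8 and 36.04 TPM in control embryos. Tex19.1 had 17.3 and 19.7 TPM in mDKO and 86.5 and 74.7 TPM in control E2C embryos, and at L2C 36.7 and 31.01 TPM in mDKO and 99.5 and 148 TPM in control embryos. In none of these comparisons did the groups overlap. Serpinb3a had 121 and 115 TPM in mDKO and 11.9 and 20.7 TPM in control L2C embryos (2.84 ± 0.24, beside 2.27 ± 0.13 at MII).

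Other genes were not called at a later stage, or were called in the other direction. Pelo had 2.60 and 1.41 TPM in mDKO and 9.44 and 7.06 TPM in control E2C embryos (-1.64 ± 0.30), and in injected and L2C embryos it did not pass (-0.45 ± 0.33 and 0.37 ± 0.26). Aurkc had 535 and 556 TPM in mDKO and 462 and 486 TPM in control E2C embryos and did not pass there (0.20 ± 0.11, adjusted p = 0.284). Mt1 was higher in mDKO at E2C, at 883 and 871 TPM against 211 and 161 TPM in control embryos, and lower at L2C, at 5923 and 5162 TPM against 10442 and 11067 TPM in control embryos. Trappc2l, higher in mDKO oocytes, was lower at E2C with 43.5 and 45.97 TPM in mDKO and 70.7 and 66.5 TPM in control embryos, and Rpl41 likewise with 99.4 and 97.5 TPM in mDKO and 232 and 235 TPM in control embryos.

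Tested directly, the mDKO effect at MII differed from that at E2C for 440 of 12642 genes (3.48%), in 245 (1.94%) with a higher and in 195 (1.54%) with a lower effect at MII. Those with a higher effect included 22 of the 91 higher genes (24.2%, against 0.929% of genes tested at MII) and those with a lower effect 58 of the 367 lower genes (15.8%, against 1.66%). The calls and this test share the MII libraries, so an excess is built in and nothing is read from it. MII libraries were made with another kit than E2C libraries, so stage and kit cannot be told apart in these differences. Of the lower genes, 48 had a control mean under 1 TPM at E2C, as did 1582 of all 10765.

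**Figure D5:**
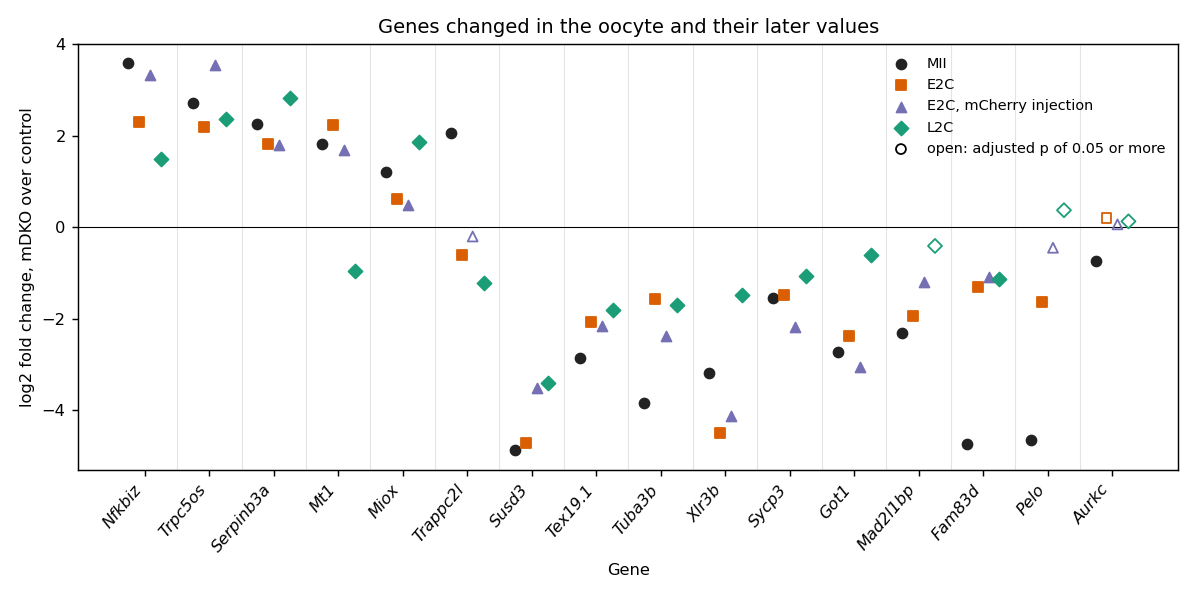
Points give the log2 fold change of mDKO over control for 16 genes in MII oocytes, E2C embryos, E2C embryos injected with mCherry and L2C embryos, filled where the adjusted p was under 0.05. Susd3, Tex19.1, Serpinb3a and Nfkbiz stay on their side in all 4, Pelo (-4.65 at MII) and Aurkc (-0.74) do not, and Mt1 and Trappc2l change side.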

How the data were processed

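The authors deposited RNA-seq values as TPM, with a column for each library. Per the labels' protocols, RNA was polyA RNA of pooled cells, and the kit for MII was TruSeq Stranded mRNA. For E2C it was SMART-Seq mRNA LP or SMART-Seq v4, and no kit is stated for L2C. Per the submitters' processing notes, STAR 2.7.10b, Bowtie2 2.3.4.1, RSEM 1.3.1 and SAMtools 1.9 and the build mm10 were used. Their roles, the annotation and the strand setting are not stated there. Since TPM keeps no read depth, depth is unknown and counting error cannot be stated.

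Genes at 1 TPM or more in 2 or more libraries of a comparison were tested on log2(TPM + 1) with limma 3.58.1 in R 4.3.3 (lmFit, eBayes with a mean-dependent trend, two-sided, Benjamini-Hochberg adjustment over all genes tested), after checks on simulated data, and called at an adjusted p under 0.05. Fold changes on this scale understate those of low genes, and with 2 libraries per group the smallest exact permutation p is 0.333. Injected E2C libraries shared 1 fit of 4 groups, and the difference between MII and E2C was an interaction contrast over 8 libraries. Gene lists were described by counts and medians, with no set test. Of the 10765 genes 10737 matched RefSeq for GRCm38.p6, the source of positions and promoters, and 10709 matched GENCODE M21, the source of length and GC content. A library's deviation is a gene's log2(TPM + 1) there minus its mean over the 4 libraries.

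Named genes were Kdm3a, Kdm3b and Jmjd1c, and the 15 highest and 15 lowest called fold changes at a mean TPM of at least 5 without predicted names. The rule added the 10 largest gains and losses of mean TPM, up to 4 called members of each of 51 lists (2 of the most abundant where none was called) and 2 genes on each side of the threshold. The genes and lists were chosen with earlier results of these data known, and a few genes are not reported here. Alternatives were a pseudocount of 0.1, no filter, a mean TPM of at least 5, size-factor scaling, no variance trend, a replicate block, a fit over 12 libraries and each library left out.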

Additional observations from a re-analysis of the deposited data

Results flagged for a closer look

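Results are given here because the mDKO effect at MII differed from that at E2C by an interaction test (limma, adjusted p under 0.05), which 22 of the 33 leading genes passed. These genes were chosen for their fold changes at MII, and the test uses the same MII libraries, so a larger effect at MII was in part built in and the count shows nothing about how effects differ between stages. The 13 genes with a more negative effect at MII had control means at E2C between 0.40 TPM (Adam8) and 9.97 TPM (Tuba3b), 7 of them under 2 TPM. From such levels a fall of the size seen at MII cannot appear on the log2(TPM + 1) scale for any of the 13. Of the 9 genes with a more positive effect, 2 had a control mean under 2 TPM at E2C. MII and E2C libraries were made with different kits, so stage and kit cannot be told apart. Values are the log2 effect at MII minus that at E2C. The effect was more negative at MII for Kdm3a (-1.40) and Kdm3b (-2.76). So it was for Urb1 (-3.79), Fam83d (-3.43), Pelo (-3.02), Adam8 (-2.93), Tmem30b (-2.87), Trim62 (-2.47) and Tuba3b (-2.26). Ust (-1.89), Zfp41 (-1.82), Sox8 (-1.82) and Cxcr3 (-1.79) followed. The effect was more positive at MII for Trappc2l (2.67), Asna1 (1.97), Wdr83os (1.63), Cldn34c1 (1.61), Epha7 (1.51), Pcbd2 (1.38), Spag16 (1.35) and Nfkbiz (1.29). LOC100862015 had a difference of 7.0, which rests on control MII values of 0 and 0.00210 TPM and is no fold.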

How the results depend on the processing

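The counts of calls depended strongly on the setting. Of the 109 called genes named by the rule, 8 were called in all 4 fits that left out a library and 68 in none. Since the groups of called genes do not overlap, leaving out a library cannot turn their direction. The 91 higher and 367 lower genes became 27 and 118 with no filter, 23 and 156 with no variance trend, and 342 and 608 in the fit over 12 libraries. With a library left out they ranged from 5 to 24 and from 7 to 78. With the filter also applied again, which was added after seeing the data, they were 5 and 37 (mDKO replicate 1 out), 30 and 98 (mDKO replicate 2), 155 and 145 (control replicate 1) and 33 and 83 (control replicate 2). With no filter, the oocyte's lower genes that were also lower numbered 27 at E2C, 68 in injected E2C embryos and 24 at L2C (130, 164 and 79 as reported), and the higher genes also higher 8, 14 and 15 (29, 48 and 47). With no variance trend they numbered 74, 74 and 49 lower and 9, 14 and 14 higher. With a library left out the lower ones ranged from 6 to 155, 4 to 128 and 3 to 59, and the higher ones from 3 to 39, 3 to 44 and 3 to 45. Genes called at MII whose effect differed from that at E2C numbered 84, and 21 with a pseudocount of 0.1, 24 with no filter and 4 to 108 with a library left out.

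The replicate block gave 880 higher and 1263 lower genes at MII. With it the lower genes also lower were 320 at E2C, 406 injected and 262 at L2C, the higher genes also higher 209, 382 and 302, and those differing between stages 159. Same-numbered libraries deviated together with a correlation of 0.359, but the labels do not say that a number marks a shared source, so the samples share only a number.

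Directions reversed for 8 named genes, none of them called. With size-factor scaling the log2 fold change was 0.085 for Il17ra, 0.073 for Mdm4, 0.081 for Serpine2 and 0.017 for Odf2. With a library left out, it ranged from -0.011 to 0.078 for Eif4a1, -0.11 to 0.11 for Il17ra, -0.026 to 0.12 for Pole4 and -0.044 to 0.013 for Mdm4. For Serpine2 it ranged from -0.060 to 0.045, for Cd52 from -0.61 to 2.32 and for Ldhc from -1.07 to 0.013. The cause was not tested. Depth is unknown, so how far it limits low genes cannot be given.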

Other observations

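Most called genes lay outside the gene lists: 60 of 91 higher and 315 of 367 lower genes. The groups that follow were put together after their values were seen, so their counts show nothing about such genes in general. Several developmental transcription factor genes were lower in mDKO oocytes. Insm1, a neuroendocrine factor gene, had 98.8 and 80.6 TPM in mDKO oocytes, against 221 and 166 TPM in control oocytes, and fell by 1.09 ± 0.17 (limma, adjusted p = 0.0364), and Tbx4, a hindlimb gene, had 114 and 122 TPM in mDKO oocytes, against 172 and 178 TPM in control oocytes, and fell by 0.56 ± 0.09. Lhx5, Tcf15, Ebf2, Glis1, Sox13, Emx2, Gli2 and Isl2 also fell, by 0.76 to 2.37. Of these, Lhx5, Tcf15 and Ebf2 passed the TPM filter only through control libraries and so had to differ.

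Genes of ephrin signalling went both ways. Efna1, a ligand gene, had 27.3 and 27.5 TPM in mDKO oocytes, against 66.6 and 70.2 TPM in control oocytes, and fell by 1.29 ± 0.11, the receptor gene Epha1 had 1.09 and 1.56 TPM in mDKO oocytes, against 12.3 and 12.03 TPM in control oocytes, and fell by 2.51 ± 0.21, and Epha7 rose by 1.64 ± 0.20. Genes of branched-chain and sulfur amino acid use were lower: Bckdhb, Dbt, Cth and Mpst fell by 1.32, 1.26, 1.37 and 1.75. Genes that bring proteins into the endoplasmic reticulum or glycosylate them there were higher. Sec61g, a subunit gene of the translocation channel, had 185 and 142 TPM in mDKO oocytes, against 81.9 and 76.5 TPM in control oocytes, and rose by 1.03 ± 0.14, and Srp68, Ddost and Dad1 rose by 1.33, 0.99 and 0.95. Rhob, a small GTPase gene, had 8.65 and 12.1 TPM in mDKO oocytes, against 78.9 and 62.8 TPM in control oocytes, and fell by 2.67 ± 0.20, and Dusp1 and Csrnp1, immediate early genes in other cells, fell by 1.09 and 1.74.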
